A study of Rattus norvegicus with 8 samples.

Results

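The conjugation enzymes of the liver were followed in 8 liver samples of male Sprague Dawley rats, an outbred laboratory strain. They comprise the UDP-glucuronosyltransferases (UGT), sulfotransferases (SULT), soluble glutathione S-transferases (GST) and microsomal glutathione S-transferases (MGST). Members were taken by gene name, as every non-control probe named Ugt1a, Ugt2, Ugt3, Sult, Gsta, Gstk, Gstm, Gsto, Gstp, Gstt, Gstz or Mgst with any ending. This gave 98 probes under 49 of the 25512 gene names of the array, of which 12 names were UGT, 13 SULT, 21 GST and 3 MGST. Rats of the high-fat group (4 samples) ate a 60% high-fat diet over 12 weeks, and those of the control group (4 samples) ate normal diet. The labels give a weight of 180 to 200 g for both groups and name no altered gene in either. The series asks which liver factors accompany insulin resistance on such a diet.

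Conjugation is the second step by which the liver makes drugs, steroids, bilirubin, bile acids and reactive by-products soluble enough to leave the body. A UGT joins a sugar acid from UDP-glucuronate to its substrate, a SULT joins sulfate from PAPS, and a GST joins the tripeptide glutathione to reactive electrophiles. In the rat several of these genes differ between the sexes and respond to hormones, nuclear receptors and the oxidant sensor NRF2.

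Levels are normalized log2 intensities. A level of 0 is the 75th percentile of the probes detected on all 8 arrays of that sample's array, and a difference of 1 is a change of 2-fold. Probes of a gene are numbered from the brightest down, and the level of one probe cannot be set against that of another. In 8 genes (Gsta2, Gstk1, Gstm3, Gstt1, Mgst2, Mgst3, Sult1b1 and Sult2a1) a pair of probes, numbers 1 and 2, shares a stretch of at least 20 bases, so such a pair does not give separate readings. Of the 98 probes, 84 under 44 names were well above background on at least 4 arrays and were tested. The other 14 probes, among them all those of Gstt4, Sult1d1, Sult6b1, Ugt2a1 and Ugt3a2, were not. No probe under the name Ugt1a1 or Sult1e1 was analysed here. The marker genes Ugt2b1, Gsta2, Gstm1 and Sult1a1 were well above background on every array. The share of all 46883 probes with such a signal ran from 50.4% on control replicate 1 to 71.9%, with 56.3% on high-fat replicate 1. The labels do not say that the samples are separate animals, so a p-value here reflects only how far these samples differ among themselves, which may be technical. Whole liver was used, so fewer cells of a type and less RNA per cell cannot be told apart.

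Of the 84 tested probes 79 did not pass the test with 4 samples a group, and 3 genes had probes that did. The alpha-class transferase listed as Gsta5 was lower on the high-fat diet at 2 of its 3 tested probes, by 8.02-fold and 9.28-fold. The hydroxysteroid sulfotransferase Sult2al1 was 2.41-fold lower, and the mu-class transferase Gstm7 was 1.77-fold and 1.75-fold higher at its 2 probes. These 5 probes were 5.95% of the 84 tested, while 0.909% of all 31455 tested probes passed (limma with Benjamini-Hochberg adjustment, adjusted p under 0.05). Counted by gene through the brightest tested probe, 2 of 44 member genes passed, which was 4.55% against 0.878% of all 18558 genes. Gsta5 is not among those 2, because its brightest probe did not pass. Higher probes were 2 of the 84, against 0.378% of all tested probes, and lower ones 3, against 0.531%. Per family, 2 GST probes were higher and 2 lower of 42, 1 SULT probe was lower of 18, and none of 18 UGT and 6 MGST probes passed by limma. An unadjusted p under 0.05 was reached by 23 of the 84 member probes (27.4%), 13 higher and 10 lower, and by 15.5% of all tested probes. By family these were 7 higher and 3 lower GST probes, 4 higher and 2 lower SULT probes, 2 higher and 1 lower MGST probes and 4 lower UGT probes.

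The families did not move as blocks. The median log2 change, high-fat minus control, was 0.07 over the GST probes, 0.19 over the SULT probes, 0.25 over the MGST probes and -0.03 over the UGT probes, against 0.02 over all tested probes. Positive changes made up 51 of the 84 member probes (60.7%), and 53.2% of all tested probes. The 4 high-fat values lay all above the 4 control values at 8 member probes (9.52%) and all below at 6 (7.14%). Over all tested probes these shares were 5.18% and 5.46%, or 10.6% in either direction.

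**Figure D1:**
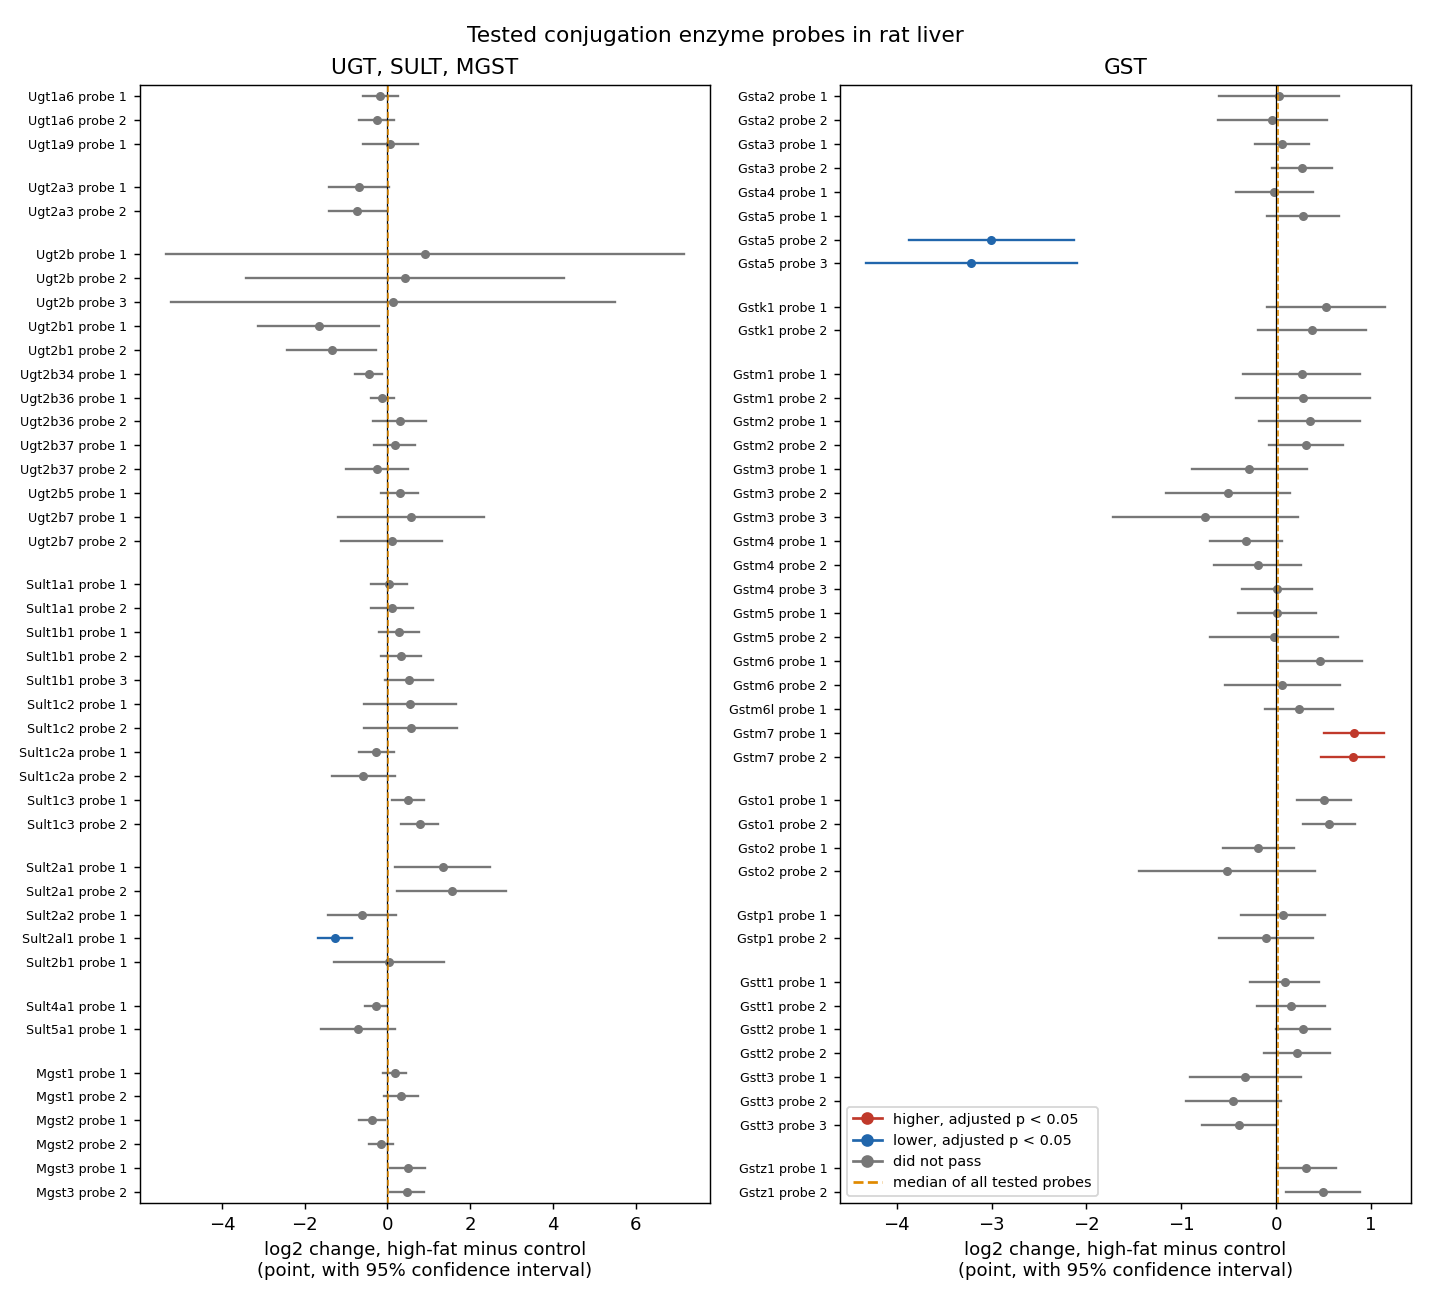
Log2 change (high-fat minus control, n = 4 per group) of each of the 84 tested probes on the x axis, with its 95% confidence interval as a line and probes grouped by subfamily on the y axis. The 2 lower Gsta5 probes and Sult2al1 lie left of 0 and the 2 Gstm7 probes right of it with intervals clear of 0, and the 3 Ugt2b probes have the widest intervals.

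The alpha class holds the glutathione transferases that make up much of the soluble GST of rat liver. The array's Gsta5 is the Yc2 subunit, known for its action on aflatoxin epoxide, and RefSeq now lists its transcripts under Gsta3. Both positioned probes lie on chromosome 9 of rn4, plus strand. They are shown because they gave different answers. Probe 1 falls at chr9:20026897-20029435, a span longer than the probe and thus broken in the genome, and probe 2 lies downstream at chr9:20031594-20031653. The last 3 bases of probe 2, in capitals, form a stop codon.
Gsta5 probe 1: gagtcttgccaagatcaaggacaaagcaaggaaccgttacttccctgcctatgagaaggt
Gsta5 probe 2: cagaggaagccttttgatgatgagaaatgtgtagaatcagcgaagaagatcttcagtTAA

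At probe 2, control replicates 1 to 4 read -2.20, -1.98, -3.05 and -1.81, and high-fat replicates 1 to 4 read -6.14, -5.41, -4.96 and -4.54. No high-fat sample came within 1 log2 unit of a control sample. The log2 change was -3.00 (95% interval -3.87 to -2.13, adjusted p = 0.0201, limma). Probe 3, which has no genome position in the files, read -2.79, -2.93, -3.99 and -2.75 in the controls. Its high-fat values were -7.71, -6.30, -5.68 and -5.61, of which 3 of 4 were well above background. The groups were again apart, with a log2 change of -3.21 (interval -4.32 to -2.10, adjusted p = 0.0343, limma). With 1 sample fewer, probe 2 lost its call without control replicate 1, control replicate 2 or high-fat replicate 2 (adjusted p up to 0.0655) and probe 3 without any sample but high-fat replicate 1 (up to 0.0923). The changes then lay between -3.27 and -2.71 and between -3.50 and -2.75.

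Probe 1, the brightest, showed no such fall. Its control values were 2.83, 3.39, 3.12 and 3.12, and its high-fat values 3.55, 3.09, 3.52 and 3.45. The groups overlapped and the change was 0.29 (interval -0.09 to 0.67, adjusted p = 0.467, limma). Probe 4 had no signal well above background. Transcripts of the alpha class are closely related, and which of them each probe binds was not tested. No stretch of 20 bases of a Gsta5 probe recurred in another probe of the array.

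None of the other alpha-class probes passed. Gsta2, a major hepatic subunit, had control levels of 5.27 to 5.93 and high-fat levels of 5.04 to 6.32 at probe 1, with a change of 0.03 (interval -0.60 to 0.66). At its probe 2 the change was -0.04, so the sign was not shared. Gsta3 (now Gsta1, the Yc1 subunit) changed by 0.06 (interval -0.23 to 0.35) at probe 1 and 0.27 (interval -0.04 to 0.59) at probe 2, and Gsta4, which acts on lipid peroxidation products such as hydroxynonenal, by -0.02 (interval -0.43 to 0.39).

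The mu-class genes stand side by side on chromosome 2, and only the 2 probes of Gstm7 among their 17 tested probes passed. Probe 1 of Gstm7 (chr2:203491529-203491588, minus strand, rn4) read 0.31, 0.14, 0.43 and 0.10 in control replicates 1 to 4. In high-fat replicates 1 to 4 it read 1.07, 0.84, 1.12 and 1.24. Each high-fat sample was above every control sample. The change was 0.82 (interval 0.50 to 1.14, adjusted p = 0.0423, limma). Probe 2 read -0.71, -0.74, -0.54 and -0.68 in the controls and -0.04, -0.07, 0.32 and 0.37 on the high-fat diet. The groups were apart here too, with a change of 0.81 (interval 0.48 to 1.14, adjusted p = 0.0489, limma). The probes share no stretch of 20 bases with each other or with another probe of the array. Which mu-class transcripts each of them binds was not tested. With any 1 of the 8 samples left out neither Gstm7 probe passed (adjusted p of 0.0707 to 0.125, limma), while the changes stayed between 0.73 and 0.90.

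The neighbours of Gstm7 gave smaller values in both directions. Gstm1, the most prominent hepatic mu subunit, changed by 0.27 (interval -0.34 to 0.88). Gstm6, next to Gstm7, changed by 0.47 at probe 1 (interval 0.03 to 0.91, adjusted p = 0.296, limma) and by 0.07 at probe 2. Gstm6l changed by 0.24 and Gstm4 by -0.32, with changes of -0.19 and 0.01 at the other 2 Gstm4 probes. The 3 Gstm3 probes gave -0.28, -0.50 and -0.75, with overlapping groups, and probes 1 and 2 lie at the same position, so they are not separate readings.

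**Figure D2:**
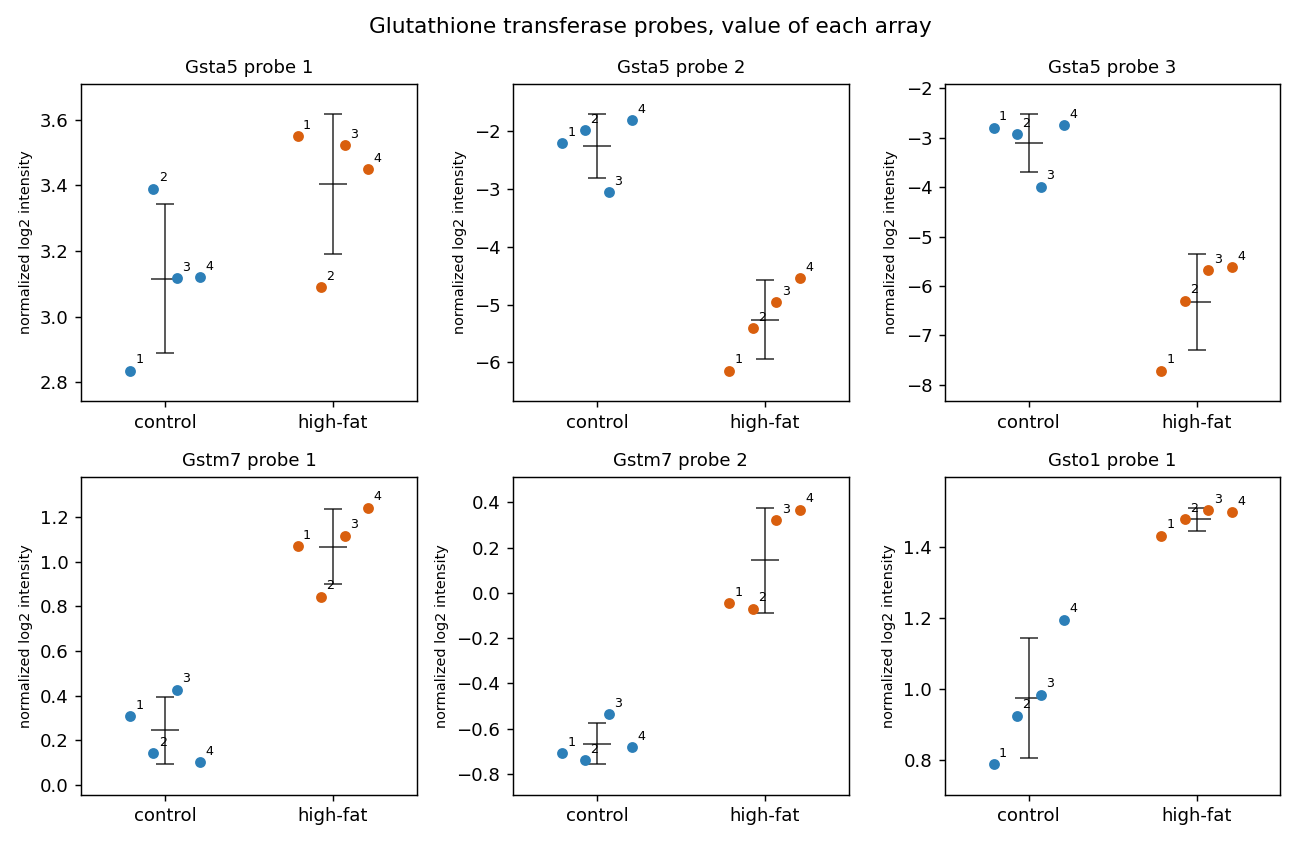
Normalized log2 intensity (y axis, own scale in each panel) of Gsta5, Gstm7 and Gsto1 probes in the control (left, blue) and high-fat (right, orange) samples, numbered by replicate, with mean ± SD (n = 4) in black. Gsta5 probes 2 and 3 are lower in all 4 high-fat samples while Gsta5 probe 1 overlaps, and the Gstm7 and Gsto1 panels have every high-fat sample above the controls.

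Among the other soluble transferases, Gsto1 came nearest to the threshold. It is an omega-class enzyme that reduces dehydroascorbate and methylated arsenic species. At probe 1 the control values were 0.79, 0.92, 0.98 and 1.19 and the high-fat values 1.43, 1.48, 1.50 and 1.50, which did not overlap. The change was 0.50 (interval 0.22 to 0.79, adjusted p = 0.112, limma), and at probe 2, also without overlap, 0.56 (interval 0.28 to 0.84, adjusted p = 0.0776). Probe 2 passed when only probes detected on all arrays were fitted (adjusted p = 0.0446) and with a trended, robust prior (adjusted p = 0.0350). Gsto2 changed by -0.19. Gstz1, the zeta-class enzyme of tyrosine breakdown, changed by 0.32 at probe 1 and 0.50 at probe 2, the latter without overlap (adjusted p = 0.307 and 0.217, limma). The mitochondrial and peroxisomal Gstk1 changed by 0.53 (interval -0.09 to 1.14).

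Theta-class values went both ways, with 0.09 for Gstt1, 0.28 for Gstt2 (no overlap, adjusted p = 0.332, limma) and -0.32 for Gstt3, whose other 2 probes gave -0.45 and -0.39. Gstp1, known as a marker of preneoplastic foci in rat liver, changed by 0.07 at probe 1 and -0.11 at probe 2, with an interval of -0.37 to 0.52 at the first. None of these passed the test.

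The microsomal transferases are membrane proteins, of which Mgst1 is the abundant hepatic form. Mgst1 had control levels of 6.22 to 6.47 and high-fat levels of 6.34 to 6.61 at probe 1, a change of 0.17 (interval -0.11 to 0.45). Mgst2 and Mgst3, both also able to make leukotriene C4, gave opposite signs. Mgst2 read 3.78, 3.62, 3.47 and 3.63 in the controls and 3.47, 3.14, 3.07 and 3.29 on the high-fat diet at probe 1, all below the controls (change -0.38, adjusted p = 0.234, limma). Its probe 2 gave -0.16 with overlap. Mgst3 changed by 0.49 and 0.47 (adjusted p = 0.256 and 0.252, limma), and its probes share a stretch with a probe named RGD1561381, and which of the 2 genes they read was not tested.

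The SULT2A enzymes sulfate hydroxysteroids such as dehydroepiandrosterone and bile acids, and are known to be higher in female than in male rat liver. The array held 2 genes of this group with clear signal, Sult2al1 (now Sult2a6 in RefSeq) and Sult2a1, and they are shown aligned because their values went opposite ways. Of 60 aligned bases 43 were identical, and capitals mark the 17 that differ. Both genes lie on chromosome 1 (rn4, minus strand). The Sult2al1 probe spans chr1:74554002-74555601 and the positioned Sult2a1 probe, probe 1, spans chr1:75632843-75646550.
Sult2al1 probe 1: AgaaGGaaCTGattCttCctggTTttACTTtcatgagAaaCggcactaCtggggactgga
Sult2a1 probe 2: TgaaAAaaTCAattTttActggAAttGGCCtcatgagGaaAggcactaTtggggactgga

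Sult2al1 read 3.17, 3.78, 3.33 and 3.57 in control replicates 1 to 4. On the high-fat diet it read 2.06, 2.46, 2.34 and 1.91. All 4 high-fat samples lay below all controls, and the change was -1.27 (interval -1.69 to -0.85, adjusted p = 0.0309, limma). Leaving out any sample other than control replicate 1 ended the call (adjusted p up to 0.0834), with changes of -1.36 to -1.16.

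Sult2a1 went the other way without passing. Its probe 1 read -0.02, 1.96, 2.12 and 1.82 in the controls and 2.77, 2.51, 3.70 and 2.24 on the high-fat diet. Control replicate 1 was far below the other controls, and the high-fat values were all above the controls. The change was 1.33 (interval 0.18 to 2.49, adjusted p = 0.262, limma), and 1.56 at probe 2 (interval 0.24 to 2.88, adjusted p = 0.251), where the groups overlapped. The difference between the 2 genes' changes was not tested. Which SULT2A transcripts the Sult2al1 and Sult2a1 probes bind was not tested either. The dim probes of Sult2a2 and Sult2b1 changed by -0.62 and 0.03, each with overlap.

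The SULT1 enzymes act mainly on phenols, thyroid hormones and amines. Sult1a1, the chief hepatic phenol sulfotransferase, changed by 0.04 (interval -0.39 to 0.47). Sult1c3, which activates N-hydroxy arylamines and is known to be higher in male rat liver, read 3.68, 3.47, 3.95 and 4.09 in the controls and 4.45, 4.30, 4.36 and 4.07 on the high-fat diet at probe 1. Only high-fat replicate 4 overlapped the controls there, and the change was 0.50 (interval 0.11 to 0.88, adjusted p = 0.214, limma). At probe 2 the groups did not overlap and the change was 0.78 (interval 0.33 to 1.22, adjusted p = 0.115). Sult1b1, a thyroid hormone sulfotransferase, changed by 0.27, 0.33 and 0.53 at its 3 probes. Sult1c2 changed by 0.54 and Sult1c2a by -0.27. The brain-type Sult4a1, dim in these livers, was at -4.22 to -4.07 in the controls and -4.53 to -4.34 on the high-fat diet, without overlap (change -0.28, adjusted p = 0.278, limma). Sult5a1 changed by -0.71, with 3 control and 2 high-fat arrays well above background.

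**Figure D3:**
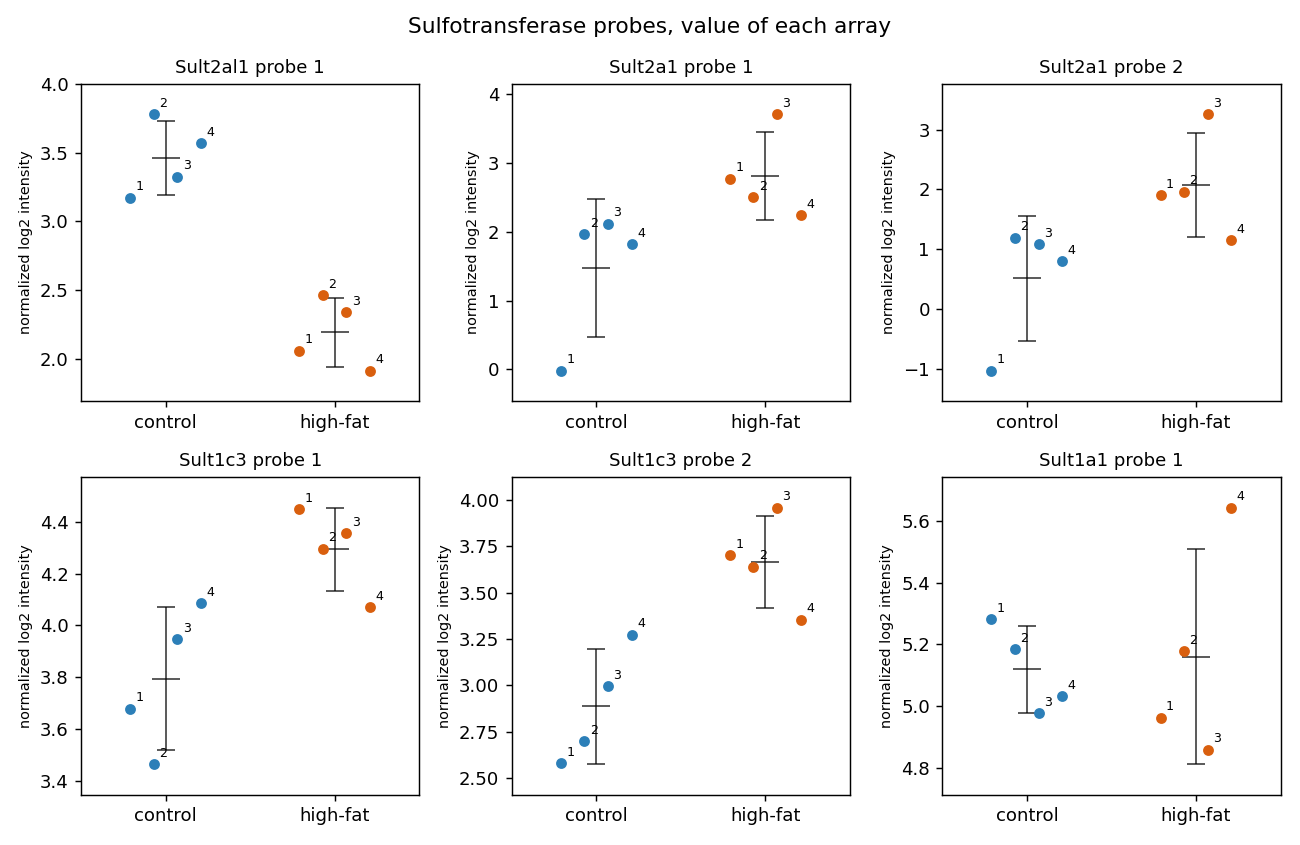
Normalized log2 intensity (y axis, own scale in each panel) of sulfotransferase probes in the control (left, blue) and high-fat (right, orange) samples, numbered by replicate, with mean ± SD (n = 4) in black. Sult2al1 is lower in every high-fat sample, the Sult2a1 panels show control replicate 1 at the bottom, and Sult1a1 overlaps.

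No UGT probe passed the test. UGT1A enzymes share their last exons and conjugate bilirubin and phenols, and both Ugt1a6 probes are annotated with transcripts of several UGT1A genes. They changed by -0.17 (interval -0.59 to 0.24) and -0.26. The dim Ugt1a9 probe changed by 0.06. Ugt2a3 changed by -0.69 (interval -1.41 to 0.03) and, at probe 2, -0.73 (adjusted p = 0.346 and 0.294, limma).

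The UGT2B enzymes conjugate steroids, bile acids and drugs, and their genes lie together on chromosome 14. Ugt2b1 read 3.57, 3.79, 3.32 and 4.25 in the controls and 3.35, 2.35, 2.61 and -0.04 on the high-fat diet at probe 1. High-fat replicate 4 was the lowest by more than 2 log2 units. The change was -1.67 (interval -3.13 to -0.20, adjusted p = 0.269, limma), and at probe 2, where the groups did not overlap, -1.35 (interval -2.43 to -0.27, adjusted p = 0.228). Ugt2b34 (now Ugt2b10) changed by -0.46 (interval -0.79 to -0.12, adjusted p = 0.193). Ugt2b5 (now Ugt2b15), a bright member of the group, changed by 0.29 (interval -0.15 to 0.74), and Ugt2b36 by -0.12 at probe 1 and 0.30 at probe 2. Ugt2b37 changed by 0.18 at probe 1 and -0.25 at probe 2.

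The probes named Ugt2b stood out after their values were seen, and not by diet. RefSeq also lists this gene as Ugt2b2, an androsterone-conjugating enzyme that some rats of another laboratory stock are known to lack. Probe 1, at chr14:22177431-22177490 (rn4, plus strand), is shown because its signal was nearly lost in 1 sample of each group.
Ugt2b probe 1: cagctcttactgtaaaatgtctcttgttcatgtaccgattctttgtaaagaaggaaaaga
It read 3.37, -5.93, 3.77 and 4.76 in control replicates 1 to 4 and 4.85, 4.08, 4.66 and -3.99 in high-fat replicates 1 to 4. Control replicate 2 and high-fat replicate 4 were thus far below the other 6 samples. Probe 2 read 0.00, -5.74, 0.16 and 1.17 in the controls and 1.12, 0.33, 0.22 and -4.40 on the high-fat diet. Probe 3 read -2.25, -9.65, -2.19 and -1.15 in the controls and -1.36, -1.92, -1.71 and -9.71 on the high-fat diet. The same 2 samples were lowest of all 8 at the 3 probes, and probe 3 was not well above background in either.

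The dim Ugt2b7 probe 1 read -4.56, -7.00, -5.32 and -3.28 in the controls, -4.24 to -3.73 in high-fat replicates 1 to 3 and -5.91 in high-fat replicate 4, again with these 2 samples lowest. Its probe 2 was well above background on 1 control and 3 high-fat arrays and showed another order.

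A probe outside the name rule, M74439, is annotated as a UDP glucuronosyltransferase gene and lies at chr14:22155438-22155497. It read -2.76, -8.86, -0.89 and -0.08 in the controls and 0.10, -1.77, -0.78 and -7.27 on the high-fat diet, with the same 2 samples lowest. With 1 such sample per group the diet change of Ugt2b was 0.91 at probe 1 (interval -5.36 to 7.18), which bounds little. The labels give no genotype, and why control replicate 2 and high-fat replicate 4 were low at these probes was not tested. The related Ugt2b5 and Ugt2b36 stayed within 1 log2 unit over all 8 samples at probe 1.

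**Figure D4:**
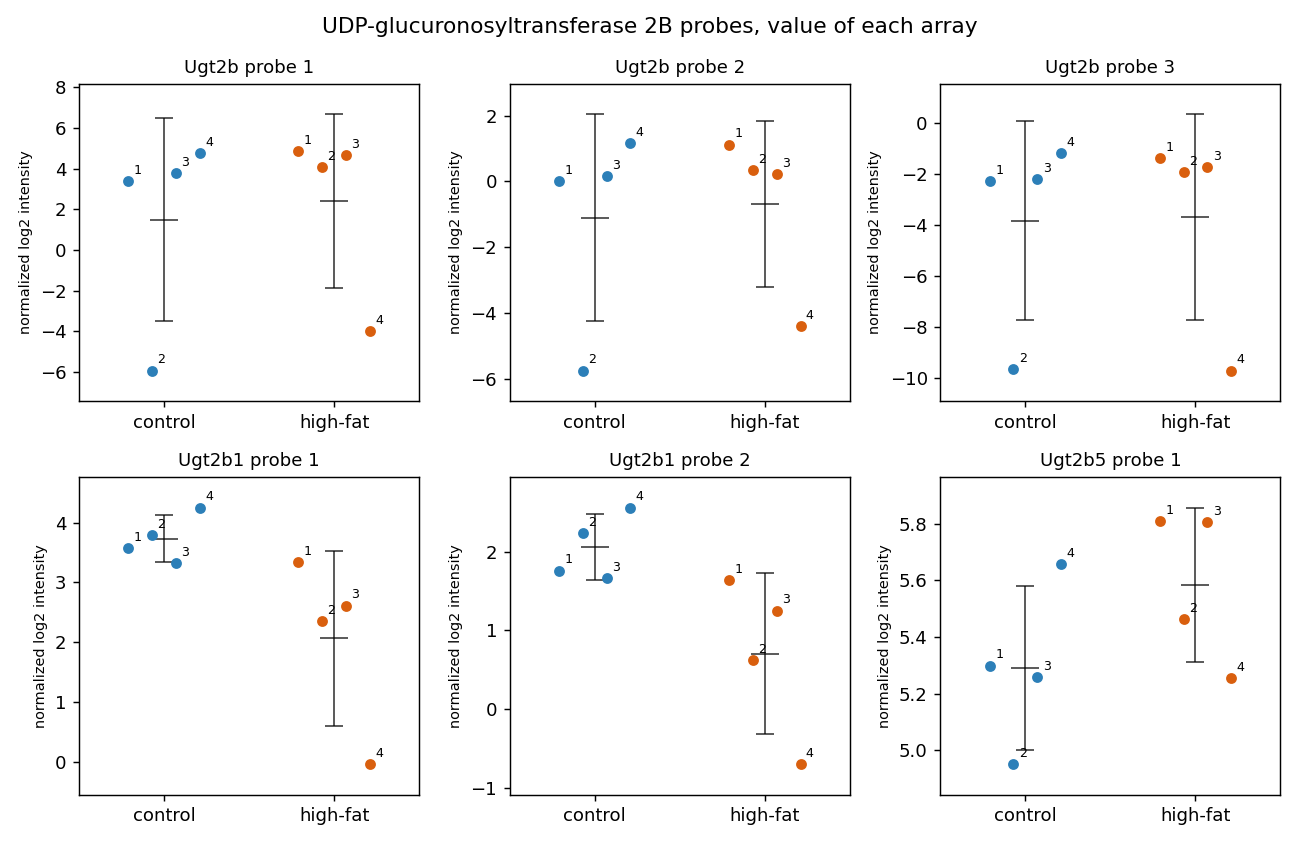
Normalized log2 intensity (y axis, own scale in each panel) of UGT2B probes in the control (left, blue) and high-fat (right, orange) samples, numbered by replicate, with mean ± SD (n = 4) in black. Control replicate 2 and high-fat replicate 4 fall far below the rest at the 3 Ugt2b probes, high-fat replicate 4 is lowest for Ugt2b1, and Ugt2b5 spans under 1 log2 unit.

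The promoters of Gsta5 and Gstm7 are shown, as genes of 1 family with called changes of opposite sign, by the 250 bases before the start that RefSeq gives on GRCr8. Capitals mark matches to the antioxidant response element core TGACNNNGC, the sequence read by NRF2, which was searched on both strands. It occurs in 10.1% of the 33469 such windows of the table, and in 5 of the 42 matched to members. A match is a description of letters only.
Gsta5 (RefSeq Gsta3), chr9:31154739-31154988, plus strand: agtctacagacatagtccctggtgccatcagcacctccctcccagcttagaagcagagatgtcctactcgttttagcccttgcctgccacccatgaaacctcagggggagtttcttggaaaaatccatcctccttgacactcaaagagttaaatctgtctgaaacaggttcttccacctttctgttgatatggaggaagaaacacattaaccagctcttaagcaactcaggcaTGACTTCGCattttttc
Gstm7, chr2:198260320-198260569, minus strand: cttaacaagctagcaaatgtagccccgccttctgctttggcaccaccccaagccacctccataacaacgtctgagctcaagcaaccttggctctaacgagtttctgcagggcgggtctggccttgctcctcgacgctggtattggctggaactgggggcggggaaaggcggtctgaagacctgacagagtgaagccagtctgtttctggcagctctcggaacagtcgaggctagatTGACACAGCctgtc
The Gsta5 window held a core starting 17 bases before the start. A second start of the same gene had no core. The Gstm7 window held a core 14 bases before the start. Whether the core plays a part in the change of either gene was not tested.

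Genes that supply cofactors, export conjugates or regulate these enzymes were read from 6 lists, 1 probe per gene. Of their 60 tested genes, 1 passed, where 0.878% of all genes did. It was Ggt1, gamma-glutamyltransferase, which splits glutathione outside the cell. Its control values were -5.13, -5.47, -5.49 and -5.17 and its high-fat values -7.44, -6.65, -6.58 and -6.44, without overlap and with 3 of 4 high-fat arrays well above background. The change was -1.46 (interval -1.98 to -0.94, adjusted p = 0.0367, limma), and the call ended without any 1 sample but high-fat replicate 1 (adjusted p up to 0.0923). The other 13 genes of glutathione supply and use did not pass, among them Gclm, the modifier subunit of the first enzyme of glutathione synthesis, with 1.22 (adjusted p = 0.133).

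In the UDP-glucuronate supply list 0 of 6 genes passed. Ugp2, which makes UDP-glucose, had the largest value, 0.999 (interval 0.50 to 1.50, adjusted p = 0.0779, limma), and Entpd5 -0.26. In the PAPS list 0 of 9 passed, with Papss2, a PAPS synthase, at 0.77 (interval 0.37 to 1.17, adjusted p = 0.0892) and sulfite oxidase Suox at 0.46. None of 6 export pumps passed, with Abcc4 at 0.36 and Abcc6 at 0.30. None of 16 transcription factors passed, with the xenobiotic receptor Nr1i3 at 0.81 and Hnf4a at -0.39 (0.11 at its other probe). Of 9 further enzymes outside the name rule none passed, with Gstcd at -0.50 and Nat2, an arylamine acetyltransferase, at 0.60 (interval 0.01 to 1.19, adjusted p = 0.314, limma). Ugp2 and Papss2 passed under some alternative settings. At an unadjusted p under 0.05 (limma) these 5 lists held 1 of 6, 2 of 9, 1 of 6, 0 of 16 and 2 of 9 genes, in the order given. The glutathione list held 3 of 14, and the share over all tested probes was 15.5%. The medians of the 6 lists lay between -0.05 and 0.18, against 0.00 over all genes.

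**Figure D5:**
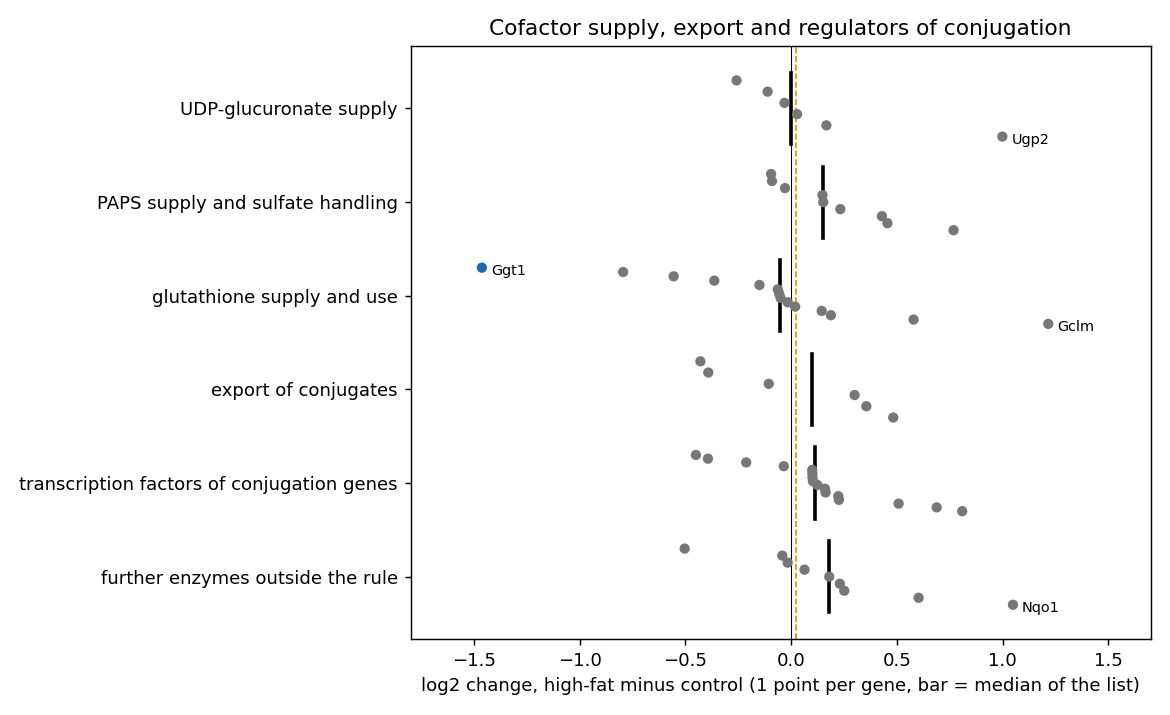
Log2 change, high-fat minus control (x axis, n = 4 per group), of each tested gene of 6 lists (y axis), with the list median as a bar and the median of all tested probes as a dashed line. Ggt1, in blue, is the gene that passed, and all medians lie near 0.

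Markers of other cells differed in part between the groups. The log2 levels of each list's tested markers were added up per sample, each marker with equal weight. The sum over 7 hepatocyte markers ranged from 38.5 to 40.02 in the controls and from 38.5 to 41.0 on the high-fat diet, and none of the 7 passed. The 4 tested cholangiocyte markers summed to -16.7 to -13.6 in the controls and -18.3 to -15.9 on the high-fat diet, and the 7 Kupffer cell markers to 4.35 to 8.68 and -1.99 to 5.31, both with overlap and with none past the threshold. Of 6 stellate cell markers Lrat (7.20) and Reln (1.34) were higher and passed, where 0.878% of all genes passed in either direction. Without passing, Gfap (0.67) and Rgs5 (0.62) were positive and Des (-0.70) and Pdgfrb (-0.01) negative. Lrat was well above background on 0 control and 4 high-fat arrays, so it met the filter through the high-fat group only. The stellate sum (-27.2 to -24.2 against -17.8 to -16.1, without overlap) takes in this Lrat change. Of 6 lymphocyte markers Cd3g passed, with a change of -1.44. The lymphocyte sums did not overlap (-25.4 to -23.0 against -29.1 to -25.6). The 4 red cell markers summed to -0.098 to 4.44 in the controls and 5.17 to 6.005 on the high-fat diet, without overlap. The 5 endothelial markers summed to -7.44 to -4.78 and -6.08 to -4.33, with overlap. No red cell or endothelial marker passed the threshold. An unadjusted p under 0.05 (limma) was reached by 1 of 7 hepatocyte, 1 of 4 cholangiocyte, 3 of 7 Kupffer cell and 3 of 4 red cell markers. It was also reached by 3 of 5 endothelial, 4 of 6 stellate and 3 of 6 lymphocyte markers, against 15.5% of all tested probes. All 4 tested cholangiocyte markers (median -0.61) and all 7 Kupffer cell markers (median -0.26) had negative changes. Within each of the other lists directions were mixed, as the endothelial Stab2 and Lyve1 were higher and Clec4g lower. The part of these cell types in the changes of Gsta5, Gstm7 and Sult2al1 was not tested.

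All 8 arrays lay on 1 slide with 2 samples of each group in each of its 2 rows. Within row 1 and row 2 the changes were -3.68 and -2.32 for Gsta5 probe 2, -4.15 and -2.28 for Gsta5 probe 3, -1.22 and -1.32 for Sult2al1, 0.73 and 0.91 for Gstm7 probe 1 and 0.67 and 0.95 for Gstm7 probe 2. Each kept its direction, and with 2 samples a group none passed within a row. With the row as a block, Gstm7 probe 1 no longer passed (adjusted p = 0.0555, limma) and the other 4 did.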

How the data were processed

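Liver RNA of 4 high-fat and 4 control samples was hybridised to 1-colour arrays with 60-base probes. Per the file headers, spot intensity was made with Agilent Feature Extraction 10.7.3.1, with background subtracted and each array detrended. The authors' deposited log2 table, of unstated scaling, matched the scanner values scaled over all probes (correlation at least 0.999) and served as an alternative. Titles gave each sample's group and number.

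Processed signals were set, as log2, relative to each array's 75th percentile, taken over the 22462 probes with signal well above background on every array. Control spots and outlier-flagged spots were left out, no spot was saturated, and spots of a probe were averaged. Probes with such a signal on 4 or more arrays, 31455 in all after 80 with a flagged value were left out, were fitted with limma 3.58.1 in R 4.3.3 (lmFit, eBayes), with adjustment over all of them and a threshold of 0.05. The fit was tested on simulated data. The number of arrays limits the precision.

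Named genes were the called probes, in each subfamily the brightest gene and up to 4 with the smallest p, the marker genes, and for each pathway list the called genes and 2 with the smallest p. A gene stood for its brightest tested probe. Some list genes and a promoter motif are not reported here. The members and lists were chosen with earlier results of these data known. Names were matched by accession to RefSeq (GRCr8) for 89 of 98 probes. Probe positions are those of the files, on rn4, given for 56 probes. Sequences are those of the files and of RefSeq promoters. Alternatives changed background correction, scaling, filter, probe summary, variance model, weights, blocks, threshold and samples. Leaving out the 2 dimmest arrays was added after the data were seen. Deviations of same-numbered samples from their group means correlated at -0.12 to 0.26, and the main fit did not take the numbers as pairs. Such correlations cannot show that the samples were unpaired.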

Additional observations from a re-analysis of the deposited data

Results flagged for a closer look

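In 15 of 176 sets of 4 values, 1 sample lay far from the other 3 by Dixon's criterion, which chance meets in about 1 of 20 sets. Of these, 6 were the Ugt2b probes. At probe 1 control replicate 2 was at -5.93 against 3.37 to 4.76 in the other controls, and high-fat replicate 4 at -3.99 against 4.08 to 4.85. At probe 2 the same samples were at -5.74 and -4.40, and at probe 3 at -9.65 and -9.71. High-fat replicate 4 also had the lowest median over the 18 tested UGT probes, -1.43 against 1.13 to 1.38 in the other high-fat samples.

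Control replicate 1 was far below the other controls for Sult2a1 probe 1, at -0.019 against 1.82 to 2.12, and for the median over the SULT probes, at 0.78 against 1.60 to 1.68. It was also the array with the smallest share of probes well above background, 50.4%. High-fat replicate 1, the next smallest, was lowest for the dim Sult2a2 probe at -6.76 against -5.98 to -5.86, and highest for Gstm4 probe 2 at -0.68 against -1.30 to -1.25.

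Single values stood apart at 4 other probes. Gsta5 probe 3 was at -3.99 in control replicate 3, against -2.93 to -2.75. Gstm2 probe 2 was at 1.71 in control replicate 2, against 1.31 to 1.37. Gstm3 probe 1 was at -1.81 in control replicate 4, against -1.76 to -1.75. Sult1b1 probe 3 was at 3.15 in high-fat replicate 4, against 2.60 to 2.66.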

How the results depend on the processing

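The 5 called probes kept their direction under every alternative run, and the family medians stayed within the spread between samples, except that of the GST probes, 0.07, which was 0.19 within slide row 2 and 0.18 without high-fat replicate 2 (0.042 to 0.18 with 1 sample left out). The calls depended on the number of samples, on which probes were tested, on the variance model and on the block. Without any 1 sample, 0 probes were higher and 0 to 2 lower, against 2 and 3. The replicate block, the fit within slide row 1, the fit within slide row 2, the unmoderated linear model, no filter on dim probes and leaving out the 2 dimmest arrays each left 0 higher and 0 lower probes. Higher probes numbered 1 with quantile normalization, 1 with the slide row block and 1 gene with the mean of a gene's probes. Averaging the Gsta5 probes gave -1.98 (adjusted p = 0.0329, limma), a sign opposite to that of its brightest probe alone, since the mean takes in the 2 lower probes. Gsto1 probe 2 passed in the fit restricted to probes well above background on all arrays (adjusted p = 0.0446) and with a trended, robust prior (adjusted p = 0.0350). With a trended, robust prior Ugp2 and Papss2 also passed (adjusted p = 0.0417 and 0.0466, limma). Ugp2 passed too with normexp background correction (0.0333), in the restricted fit (0.0425), where Papss2 passed narrowly, and without control replicate 4 (0.0318). The replicate block left 1 call among all probes, against 286, and the cause was not tested. For the 14 untested member probes the signal over background was too low to limit a change.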
